A study of Canis lupus familiaris with 48 samples.

Results

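The major histocompatibility complex (MHC) region of the dog was followed in a kidney cell line placed in hyperosmotic medium. Members were the annotated genes whose first chromosome entry was chromosome 12 and whose smallest start was at most 2700000 in the dog genome build CanFam3.1, and whose mean reached 1 count per megaread (CPM) in at least 1 of the 4 groups. The interval held 141 of the 32704 annotated genes. Of these, 132 had a read in any library and 87 met the level; these 87 members are numbered here from 1 to 87 by start, from 194778 to 2697508.

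The data were 48 single-read RNA sequencing libraries of polyadenylated RNA from MDCK I, an established epithelial line from dog kidney. Of 144 h in culture, the final 24 h were spent at 300 mOsm (control, regular medium) or at 500 mOsm, reached by adding 200 mOsm of NaCl, raffinose or urea. Each of the 4 groups held 12 libraries, 1 at each of 12 cell passages from 1 to 19, and all groups were of the same line with no genetic change named in the labels. The replicates were passages of 1 cell line, so p-values measured the spread between these libraries only, and whether libraries of 1 passage came from 1 culture was not given in the sources used here.

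The MHC is a dense cluster of genes of adaptive and innate immunity. Its class I genes encode molecules that show peptides from inside the cell to T cells and are made by nearly all nucleated cells, tubule epithelium included. Its class II genes encode the molecules that show ingested antigen, mainly on professional antigen-presenting cells, and many epithelia make them when exposed to interferon gamma. The class III stretch between them holds complement components, cytokines of the tumour necrosis factor family, chaperones of the heat shock protein 70 (HSP70) family and many genes with no role in immunity. Kidney medulla cells live in high NaCl and urea; NaCl and raffinose stay largely outside a cell and draw water from it, whereas urea crosses the membrane.

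The deposited table named genes by Ensembl identifier only, and 0 of the 141 rows could be paired with a symbol. In RefSeq's gene list of another dog assembly, UU_Cfam_GSD_1.0, chromosome 12 carries in order, among others, DLA88, DLA-64, TNF, BAG6, C2, CFB, NOTCH4, BTNL2, DLA-DRA, DLA-DQA1, TAP2, PSMB8, DLA-DMA, BRD2, COL11A2 and TAPBP, which is the order class I, class III, class II. No member was paired with any of these genes by its place in that order. Members are therefore described by position, structure and level, and the label of the region was not checked against gene names. Identifiers are printed for members chosen by a stated rule; members given by number alone were singled out after their values were seen.

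A library held between 3.915 and 16.16 megareads (M) of counted reads, with a median of 10.51 M; the group medians were 10.24 M (control), 11.93 M (NaCl), 10.12 M (raffinose) and 10.3 M (urea). A member at 1 CPM thus rested on about 3.915 to 16.16 reads in a library. Counting error only is covered by these depths, since reads carried no molecular identifiers. In bulk RNA, fewer cells that express a gene and less RNA per cell cannot be told apart.

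Each solute changed the members about as often as it changed genes elsewhere. In NaCl, 32 of the 87 members rose and 32 fell against control (edgeR quasi-likelihood test, Benjamini-Hochberg adjusted p under 0.05), where 34.6% of all 12654 tested genes rose and 36.1% fell, 70.7% in all. In raffinose 32 members rose and 29 fell, beside 36.7% and 38.2% of all tested genes, 74.9% in all. In urea 20 rose and 24 fell, beside 27.4% and 24.9%, 52.3% in all. The member shares of 73.6%, 70.1% and 50.6% lay near these backgrounds, so the number of calls did not set the region apart. The 3 comparisons share the 12 control libraries.

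Changes of at least 2-fold were 10 up and 10 down in NaCl (17.7% of all tested genes were called at that size), 12 up and 12 down in raffinose (22.2%), and 3 up and 5 down in urea (7.52%). The 12 NaCl libraries lay wholly above the 12 controls for 17 members and wholly below them for 7, beside 24.2% of all tested genes. For raffinose these counts were 17 and 9, beside 27.2%, and for urea 6 and 2, beside 9.05%. Against a minimum fold of 1.5 (edgeR's glmTreat), 24 members were called for NaCl, 29 for raffinose and 11 for urea, beside 24.6%, 31.4% and 9.21% of all tested genes. The median log2 fold change over the 87 members was -0.06, 0.01 and -0.07 for the solutes in that order, and over all tested genes it was -0.02, -0.02 and 0.02. Among the 77 members that reached 1 CPM in all 4 groups, whose choice did not hang on a single high group, 27 rose and 27 fell in NaCl, 27 and 24 in raffinose, and 19 and 21 in urea. Changes of at least 2-fold among these 77 were 6 up and 6 down in NaCl, 8 and 8 in raffinose, and 2 and 2 in urea. The larger 2-fold counts of the 87 thus include members chosen through a high group.

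The balance of rises and falls depended on the scaling. With library totals in place of the trimmed mean of M-values (TMM) factors, the median of all tested genes moved to -0.19 for NaCl, -0.25 for raffinose and -0.053 for urea. The members then split into 25 higher and 45 lower in NaCl, 26 and 48 in raffinose, and 16 and 31 in urea. The split of all tested genes was not taken at that scaling, so these counts are not read as a result about the region. No member called under both scalings was called in opposite directions. The TMM factors ran from 1.055 to 1.121 in control, 0.909 to 0.999 in NaCl, 0.872 to 0.983 in raffinose and 0.959 to 1.065 in urea. Those of control thus did not overlap those of NaCl or raffinose.

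**Figure D1:**
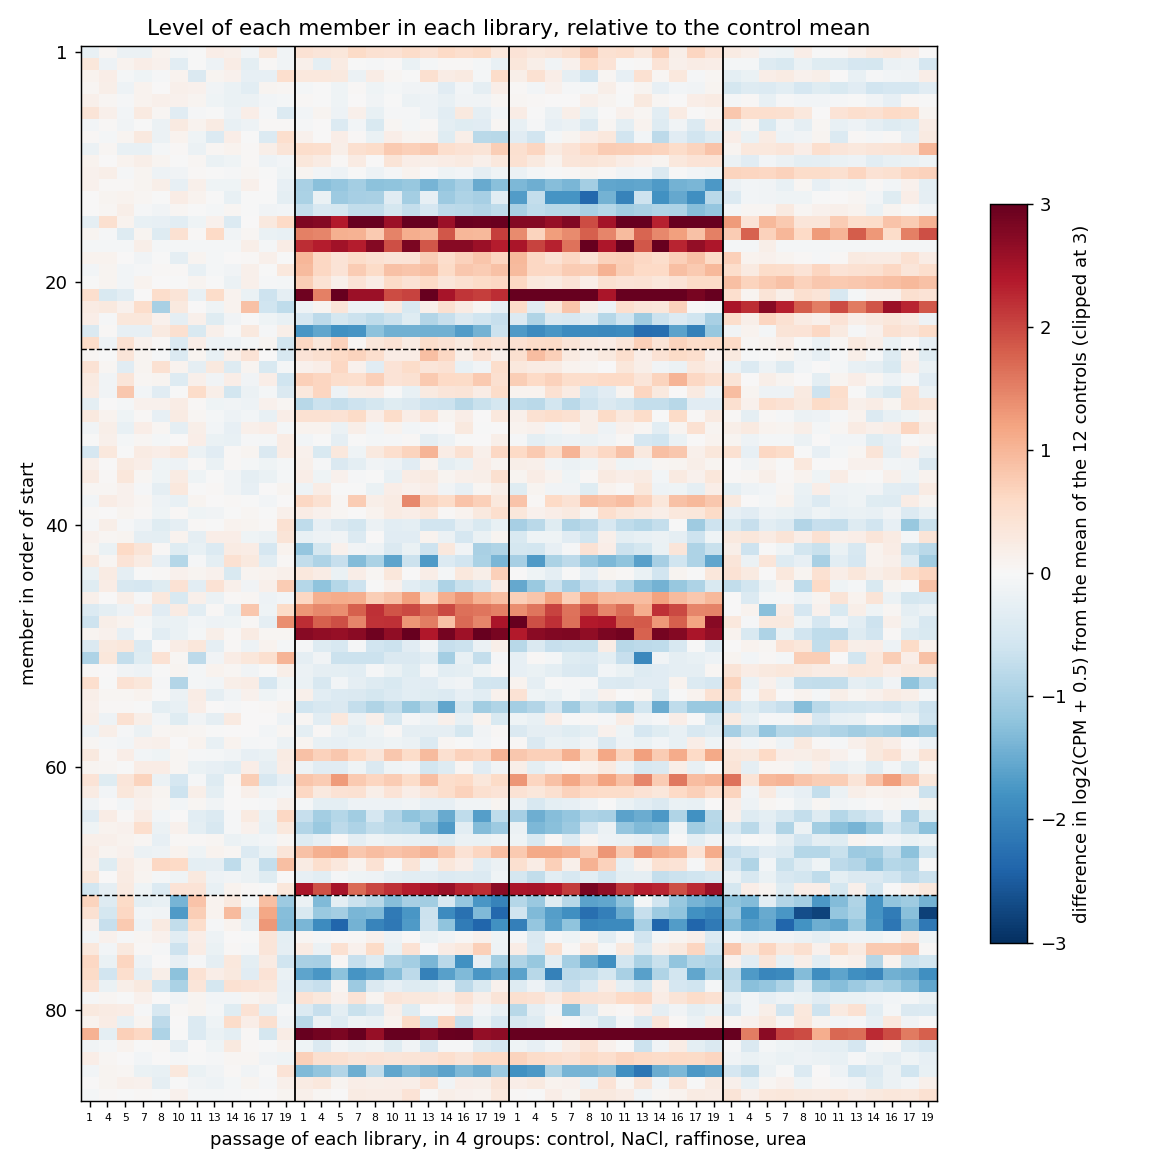
Level of each of the 87 members (rows, by start) in each of the 48 libraries (columns, by group and passage), as the difference in log2(CPM + 0.5) from the mean of the 12 controls; the dashed lines mark the ends of the first and middle segments. The rows with the darkest red are few. Some sit in short stretches and others, such as members 70 and 82, stand alone, and most other rows stay pale in all 4 groups.

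The counts were also taken along the interval, as a description with no test. The interval was divided into 3 segments of equal length with 25, 45 and 17 members. Over all tested genes, 34.6% rose and 36.1% fell in NaCl, 36.7% and 38.2% in raffinose, and 27.4% and 24.9% in urea. In the first segment 11 members rose and 5 fell in NaCl, 12 and 5 in raffinose, and 10 and 3 in urea. In the middle segment the counts were 16 and 19, 15 and 17, and 7 and 12. In the last segment they were 5 and 8, 5 and 7, and 3 and 9. Members 71, 73, 76 and 77 of that segment, and members 16, 17 and 21 of the first segment, were under 1 CPM in some group and were chosen through the groups in which they were high. Among the members at 1 CPM in all 4 groups, the last segment held 13, with 5 rises and 4 falls in NaCl, 5 and 3 in raffinose, and 3 and 6 in urea. The first segment then held 22, with 8 and 5, 9 and 5, and 9 and 3. On that basis falls outnumbered rises in the last segment in urea and not in NaCl or raffinose. With 13 members and no test, this is not read as a result about the segment.

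Members next to each other were called in the same direction in 32 of 86 neighbouring pairs in NaCl (37.2%, beside 30% of neighbouring tested genes over the genome), in 29 pairs in raffinose (33.7%, beside 32.9%) and in 16 in urea (18.6%, beside 16.7%). Opposite calls made up 22.1%, 17.4% and 5.81% of the pairs, beside 20.9%, 23.7% and 11.4% over the genome. The longest run with a single direction was of 7 members, 15 to 21, all higher in NaCl and in raffinose. Members 16, 17 and 21 of that run met 1 CPM only through groups in which they were high. The pairs of that run enter the shares above, so neither the run nor those shares are support for a change of the region. In urea the longest run was of 6 members, 64 to 69, all lower, and it takes in the small change of member 66 (-0.17).

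**Figure D2:**
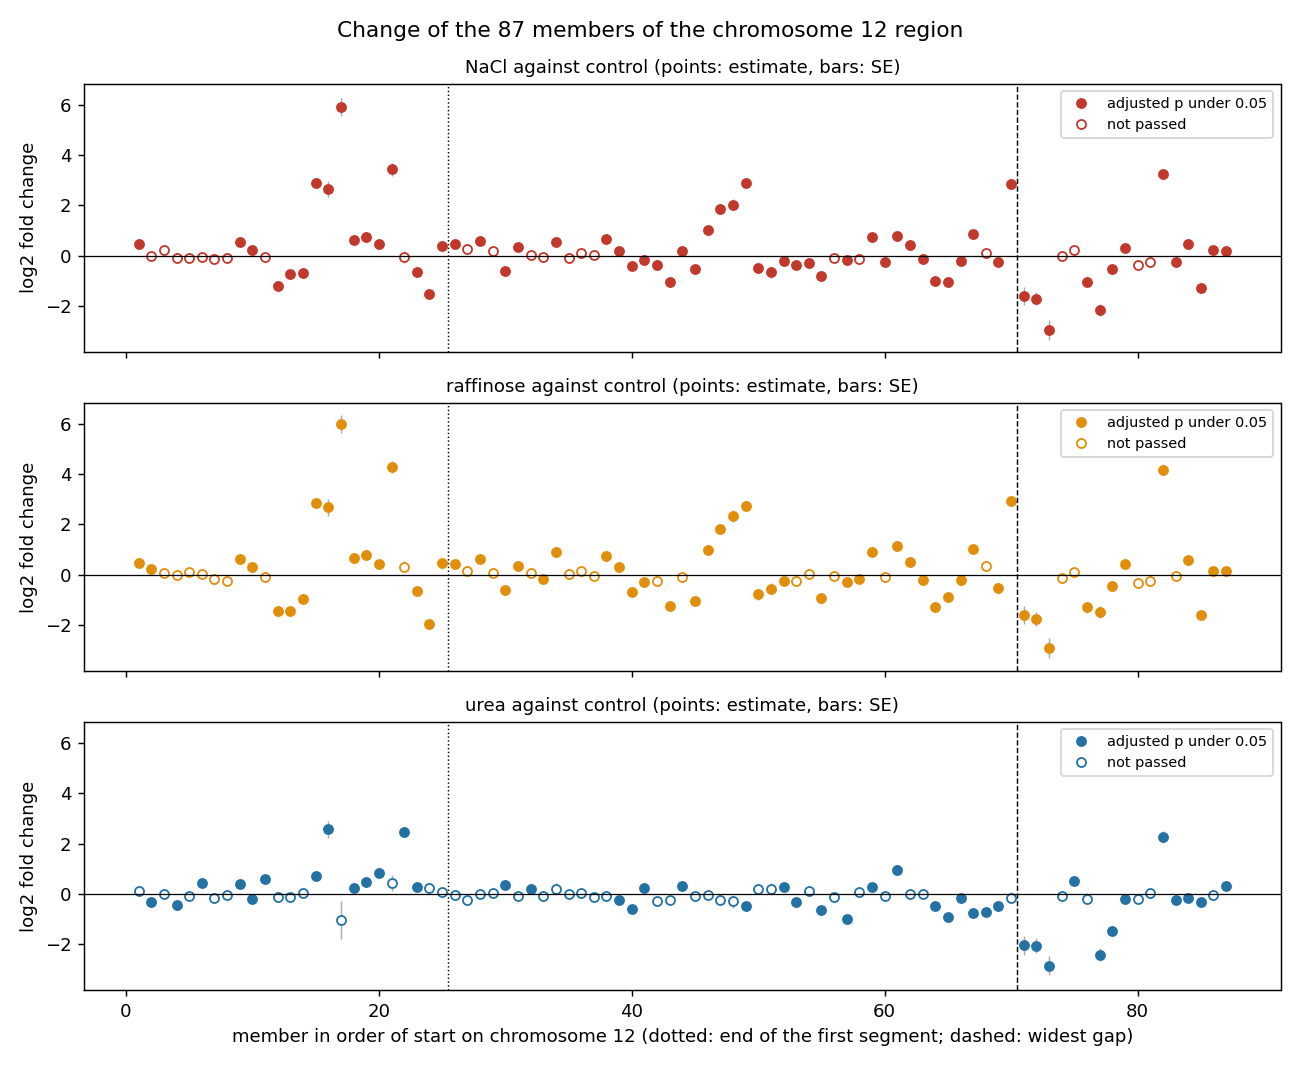
Log2 fold change of each member (x axis, numbered by start) against control in NaCl, raffinose and urea, with SE bars, filled where the adjusted p was under 0.05; the dotted line ends the first segment and the dashed line marks the widest stretch without a member. Members 15 to 21 and 46 to 49 stand above 0 in NaCl and raffinose, and members 71 to 73, just beyond the dashed line, stand below 0 in all 3 panels.

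In the first segment a trio of abundant neighbours fell in NaCl and raffinose, and the member next to them on 1 side rose. On the other side, member 11 had means of 192 CPM in control, 183 in NaCl and 182 in raffinose. It did not pass in NaCl or raffinose. Its mean in urea was higher, at 289 CPM, and its lowest urea library (260 CPM) lay above its highest control (216 CPM). Member 12 (495616 to 507439, minus strand, 15 exon blocks) had 173, 211 and 232 CPM (lowest, median and highest of 12) in control, 71.8, 90.4 and 104 in NaCl, 62.1, 75.9 and 101 in raffinose and 169, 193 and 226 in urea. The NaCl and raffinose libraries lay wholly below the controls, and the urea libraries overlapped them. Its log2 fold changes were -1.20 ± 0.07 (SE), -1.45 ± 0.07 and -0.10 ± 0.07, the last with an adjusted p of 0.186.

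Member 13 (ENSCAFG00000000443, 512945 to 516144, plus strand, 4 exon blocks) had the second highest level per length of the 87, at 182.6 reads per kilobase of exon per megaread (RPKM) over all libraries. It had 271, 336 and 390 CPM in control, 157, 172 and 291 in NaCl, 65.3, 101 and 216 in raffinose and 253, 311 and 385 in urea. The raffinose libraries lay below every control, while the highest NaCl libraries overlapped the lowest controls. It fell by 0.72 on the log2 scale in NaCl (SE 0.14, adjusted p = 7.05e-06) and by 1.44 in raffinose (SE 0.14, adjusted p = 2.43e-13), each lower in 12 of 12 same-passage pairs. Urea gave -0.11 (adjusted p = 0.529).

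Within the NaCl and raffinose groups the libraries of member 13 fell into a higher and a lower set, at much the same passages. In NaCl the libraries of passages 4, 10, 13 and 19 had 291, 264, 283 and 270 CPM, and the other 8 had between 157 and 177. In raffinose passages 4, 13 and 19 had 204, 216 and 192 CPM, and passage 10 had 126 against 114 or less in the other 8. In control the same 4 passages had 357, 390, 331 and 271 CPM, which spans the group from its lowest to its highest library. The grouping was noticed after the values were seen and was not tested. It was not particular to member 13, since the same 4 passages had the highest means of member 7 and the lowest of member 56.

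Member 14 (516161 to 528232, minus strand, 12 exon blocks) begins directly beyond member 13. It fell from 287, 306 and 351 CPM to 168, 186 and 220 in NaCl and to 128, 160 and 183 in raffinose, with 273, 323 and 375 in urea. Its changes were -0.68 ± 0.05, -0.95 ± 0.06 and 0.05 ± 0.05, and the NaCl and raffinose groups did not overlap the controls. Members 12 to 14 were also the longest run with a direct difference between NaCl and raffinose, each higher in NaCl, by 0.25, 0.71 and 0.28.

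Next on the chromosome lay the member with the highest level per length over all libraries. In control and in urea its level per length was below that of member 13 (252 and 233 RPKM). Member 15 (ENSCAFG00000000447, 529738 to 530220, minus strand) has a single exon of 483 bases. It had 24.3, 31.1 and 49.6 CPM in control, 171, 254 and 327 in NaCl, 128, 223 and 402 in raffinose and 41.6, 55.3 and 78.8 in urea. Per length it went from 68.9 ± 17 RPKM (SD, n = 12) to 508 ± 93 in NaCl, 498 ± 153 in raffinose and 114 ± 24 in urea. All NaCl and raffinose libraries lay above all controls and all urea libraries. The log2 fold changes were 2.87 ± 0.14 (adjusted p = 2.31e-24), 2.85 ± 0.14 (2.12e-24) and 0.72 ± 0.14 (1.30e-05), and NaCl and raffinose did not pass a direct test (0.03, adjusted p = 0.914).

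Member 16 (551501 to 715625, plus strand, 6 exon blocks) spans 6 other annotated genes and rose with all 3 solutes to nearly 1 level. It had 0 to 0.479 CPM in control with 24 reads in all, and a mean of 1.14 ± 0.50 CPM in NaCl, 1.16 ± 0.37 in raffinose and 1.07 ± 0.54 in urea. The log2 fold changes of 2.65 ± 0.33, 2.68 ± 0.33 and 2.58 ± 0.33 came from few reads. The 3 differences between solutes had adjusted p-values of 0.714 to 0.959. Its highest group mean was the lowest of all members, just inside the level of 1 CPM; just outside were genes at 0.968 and 0.910 CPM.

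Member 17 (ENSCAFG00000034880, 566705 to 573172, plus strand), which lies inside the span of member 16 and shares no exon bases with it, behaved differently. It has 118 exonic bases in 2 blocks. Control had 4 reads in 3 of 12 libraries and urea had 1 read, in the library of passage 5. NaCl had 1.40, 2.35 and 3.21 CPM and raffinose 1.12, 2.31 and 4.67, with reads in all 12 libraries of each. The groups did not overlap, and the fitted log2 fold changes were 5.91 ± 0.35 (adjusted p = 6.87e-21) and 6.0 ± 0.35 (2.50e-21). Because urea had a single read, its ratio to NaCl is given with a counting interval: NaCl was 308 times higher (exact 95% interval 54.8 to 12188), and raffinose 318 times (56.6 to 12593). Without passage 5 the fitted differences from urea rose from 6.95 to 7.70 for NaCl and from 7.04 to 7.81 for raffinose.

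Members 18 to 20, which also lie within the span of member 16, had higher levels and smaller changes. Member 18 rose by 0.62, 0.65 and 0.22 in NaCl, raffinose and urea, member 19 by 0.75, 0.79 and 0.48, and member 20 by 0.47, 0.42 and 0.83. Member 20 had 205, 230 and 258 CPM in control and 373, 416 and 461 in urea, so its urea libraries lay above all controls. Its level was lower in NaCl than in urea (log2 difference -0.36, adjusted p = 1.07e-07), and lower in raffinose than in urea (-0.41, adjusted p = 4.56e-09).

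The run ended with member 21 (ENSCAFG00000000472, 815483 to 816632, minus strand, 4 exon blocks). It had 0.0696, 0.325 and 0.778 CPM in control, 1.99, 3.97 and 7.35 in NaCl, 4.26, 7.52 and 11.6 in raffinose and 0.126, 0.573 and 0.752 in urea. The NaCl and raffinose groups lay above all control and urea libraries. It rose by 3.43 ± 0.25 in NaCl (adjusted p = 1.35e-17) and 4.27 ± 0.24 in raffinose (6.90e-22), and urea gave 0.43 (adjusted p = 0.272). Raffinose exceeded NaCl in 12 of 12 passages, a difference of -0.84 ± 0.18 for NaCl against raffinose (adjusted p = 0.000855) that was lost at a minimum fold of 1.5.

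**Figure D3:**
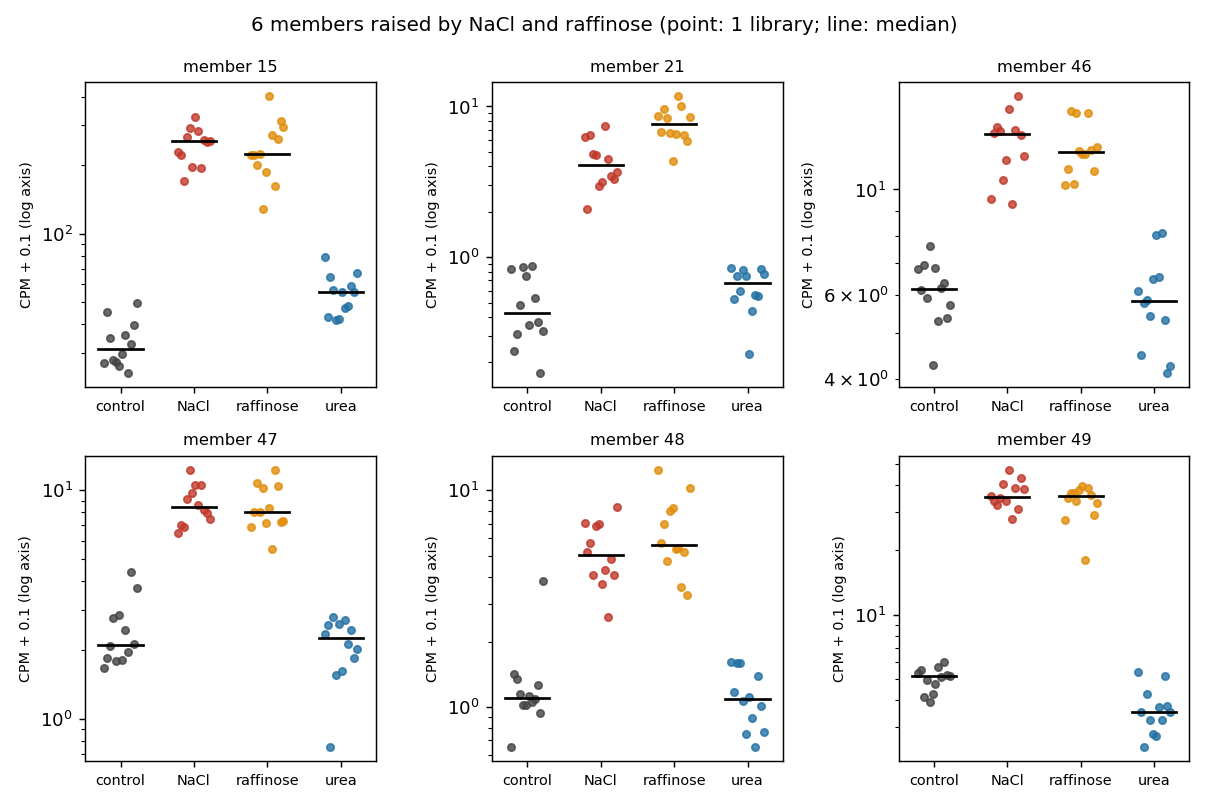
Level of 6 members with higher levels in NaCl and raffinose, in CPM + 0.1 on a log axis; each point is 1 library, ordered by passage within its group, and lines are medians. The NaCl and raffinose points stand above all control points in members 15, 21, 46, 47 and 49, and in member 48 a single control, passage 19 at 3.72 CPM, reaches into them.

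A second stretch of rises lay in the middle segment and spanned 4 consecutive members, 46 to 49, from 1281472 to 1300710. A single other annotated gene starts among them, on the other strand of member 46, and shares all its 192 exon bases with it. No read was counted on that gene in any library. Since strand was ignored, this does not show a lack of expression. Member 46 (minus strand, 1 exon block of 1926 bases) had 4.19, 6.08 and 7.50 CPM in control, 9.22, 13.0 and 15.6 in NaCl, 10.1, 11.9 and 14.5 in raffinose and 4.02, 5.72 and 8.02 in urea. The NaCl and raffinose groups lay above the controls, and urea overlapped them.

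Member 49 (ENSCAFG00000000641, 1298770 to 1300710, plus strand, 1 exon block of 1941 bases) had the largest share of its variance between groups of the 87 members, 97.2%. It had 3.83, 5.07 and 5.92 CPM in control, 27.8, 35.1 and 47.03 in NaCl, 17.9, 35.4 and 39.4 in raffinose and 2.33, 3.42 and 5.34 in urea. It rose by 2.87 ± 0.11 in NaCl (adjusted p = 1.11e-28) and 2.74 ± 0.11 in raffinose (5.49e-28), and it fell by 0.47 in urea (SE 0.12, adjusted p = 0.00125), lower in 11 of 12 passages. The difference of NaCl from urea was 3.34 ± 0.12, with no overlap of the groups.

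Between these single-exon members, member 47 (1285461 to 1288793) rose by 1.86 ± 0.16 and 1.81 ± 0.16 and member 48 (1292352 to 1293553) by 2.03 ± 0.23 and 2.33 ± 0.23 in NaCl and raffinose; member 46 rose by 1.04 ± 0.10 and 1.00 ± 0.10. With urea the changes of members 46 to 48 were -0.05, -0.23 and -0.30, with adjusted p-values of 0.716, 0.265 and 0.371. The estimates grew from member 46 to member 49 along the chromosome in both solutes, an order that was not tested. For member 48 the control library of passage 19 had 3.72 CPM against 1.32 in the next highest, and the control mean was 1.22 with it and 0.997 without it. NaCl and raffinose did not pass a direct test in any of the 4 (adjusted p from 0.343 to 0.862). How reads that match several places were placed was not tested, so members with near-identical copies would be measured with less certainty.

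The neighbours on either side of this stretch moved the other way. Member 45 (ENSCAFG00000035349, 1274858 to 1279610, minus strand) had 7.05, 10.4 and 17.7 CPM in control, 4.18, 6.85 and 11.9 in NaCl, 3.21, 5.01 and 7.29 in raffinose and 5.81, 9.55 and 19.3 in urea, and passage 19 was the highest library in every group. It fell by 0.52 in NaCl and 1.06 in raffinose (SE 0.18 for each). The direct difference of NaCl from raffinose, 0.54 ± 0.19 (adjusted p = 0.0412), was lost when any of passages 7, 8, 10, 11, 13, 14, 16 or 17 was left out (adjusted p 0.0536 to 0.087). Member 50 gave -0.48 and -0.78, and member 51 gave -0.66 and -0.56, all called. The NaCl call of member 50 was lost without any of passages 4, 5, 8, 11, 14 or 16 (adjusted p 0.0525 to 0.0866), and the raffinose call of member 51 without passage 19 (-0.43, adjusted p = 0.078).

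At the end of the middle segment, the 6 members 64 to 69 (1551674 to 1582693) all fell in urea, by 0.47, 0.92, 0.17, 0.76, 0.72 and 0.49 in order. The third of these, member 66, did not pass without any of passages 1, 7, 10, 11 or 19 (adjusted p 0.0508 to 0.0866). All 6 lie inside the span of member 59 (1420247 to 1624856, minus strand) without shared exon bases, and reads were counted without strand. Member 59 rose by 0.72, 0.91 and 0.27 in NaCl, raffinose and urea. In NaCl the same members gave -1.0, -1.05, -0.21, 0.87, 0.11 and -0.27, all called but the fifth (adjusted p = 0.556). Member 67 (1571451 to 1573271, plus strand) was opposite between the solutes. It had 19.1, 26.6 and 32.6 CPM in control, 34.3, 47.4 and 56.2 in NaCl, 34.2, 54.1 and 64.9 in raffinose and 10.6, 15.5 and 19.9 in urea. The NaCl and raffinose libraries lay above all controls. The urea libraries lay below all controls, except that passage 5 in urea (19.9 CPM) exceeded passage 16 in control (19.1 CPM). The difference of NaCl from urea was 1.63 ± 0.10.

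Member 70 (1583062 to 1585185, minus strand, 3 exon blocks), the last by start before the widest gap, rose in NaCl and raffinose and not in urea. It had 0.368, 0.786 and 1.19 CPM in control, 3.64, 5.94 and 7.84 in NaCl, 4.34, 6.10 and 8.70 in raffinose and 0.369, 0.871 and 1.08 in urea. The log2 fold changes were 2.83 ± 0.17, 2.93 ± 0.17 and -0.14 ± 0.20 (adjusted p = 0.588 for urea). It met the level of 1 CPM through the NaCl and raffinose groups alone.

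From the end of member 59 at 1624856 to the start of member 71 at 2132986, a stretch of 508130 bases, there was no member. It held 11 annotated genes, of which 4 had no read and none had more than 72 reads over all 48 libraries. Just beyond it lay 3 members of low level that fell with each solute. Members 71 (2132986 to 2136689), 72 (2151409 to 2164562) and 73 (2221181 to 2227600) each have 4 exon blocks and overlap no other annotated gene.

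Member 72 (ENSCAFG00000000806, minus strand) had 2.36, 8.93 and 20.2 CPM in control, 1.32, 3.15 and 6.24 in NaCl, 1.45, 2.63 and 5.67 in raffinose and 0.834, 2.25 and 4.30 in urea. It was lower than its same-passage control in 12 of 12 pairs with each solute, although the groups overlapped. The lowest controls were passages 10, 19 and 4, at 2.36, 3.33 and 5.97 CPM, and the last of these lay below the highest NaCl library only. It fell by 1.71 (SE 0.27, adjusted p = 2.98e-07), 1.75 (SE 0.28, 1.92e-07) and 2.05 (SE 0.28, 2.22e-08) in NaCl, raffinose and urea. The solutes did not pass a direct test against each other (adjusted p from 0.304 to 0.940).

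Member 71 fell by 1.61 (SE 0.34), 1.62 (SE 0.35) and 2.04 (SE 0.37), from a control mean of 1.73 ± 0.99 CPM (SD, n = 12) to 0.569, 0.547 and 0.422 CPM. Member 73 fell by 2.95 (SE 0.39), 2.91 (SE 0.40) and 2.85 (SE 0.39), from 2.38 ± 1.5 CPM to 0.318, 0.291 and 0.320 CPM. Members 71 and 73 reached 1 CPM in control alone, so they were chosen through the group in which they were high. Among the members at 1 CPM in all 4 groups, the lowest estimates were -1.71, -1.94 and -2.05 in NaCl, raffinose and urea. With each solute the estimate for member 73 was the lowest of the 87. It rests on few reads, since member 73 had 330 reads over the 12 controls and 39, 36 and 41 over the 12 libraries of NaCl, raffinose and urea. In control, members 71 to 73 were highest at passage 17, at 3.27, 20.2 and 5.91 CPM, and members 71 and 72 lowest at passage 10. Without passage 17 the fall of member 73 in raffinose was 2.53, and without passage 13 it no longer passed the filter on low counts and was not tested.

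**Figure D4:**
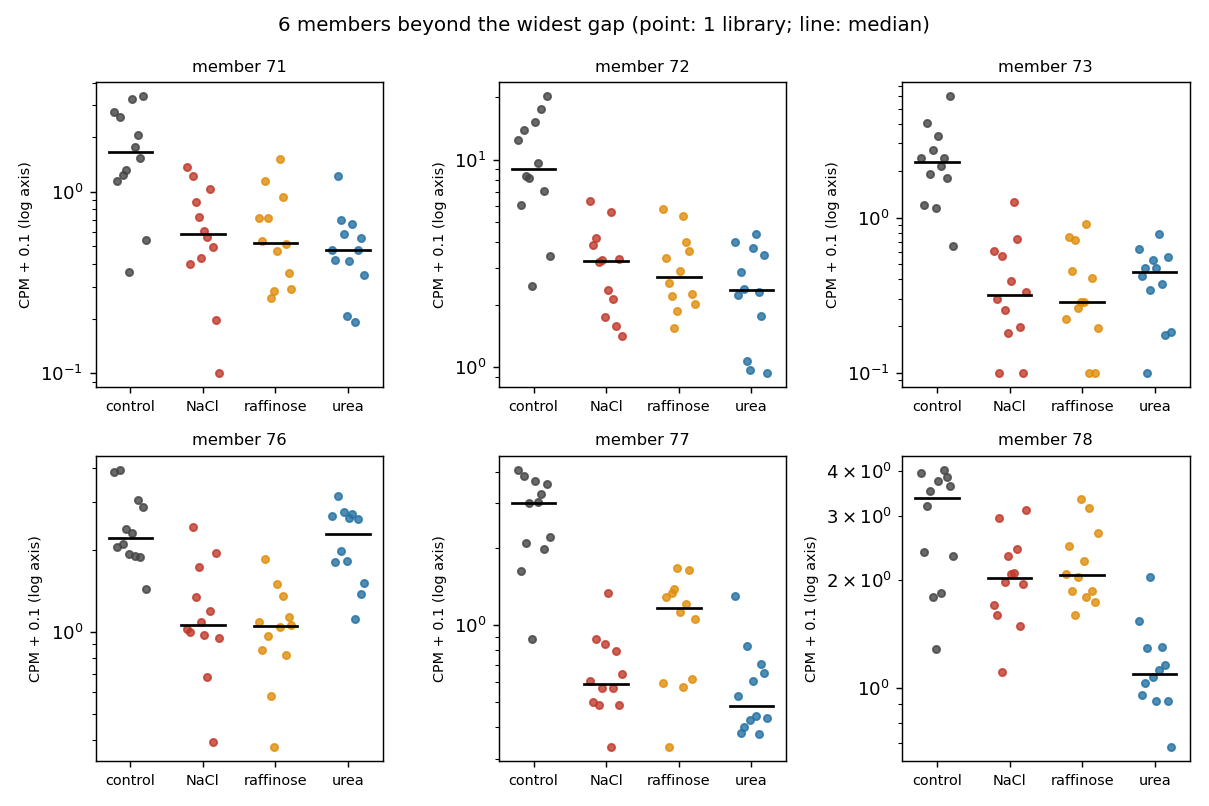
Level of 6 members beyond the widest gap, in CPM + 0.1 on a log axis; each point is 1 library, ordered by passage within its group, and lines are medians. In members 71, 72 and 73 the medians of all 3 solutes lie below most control libraries, member 76 is lower in NaCl and raffinose only, and member 78 is lowest in urea.

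The fall was not shared by all members of the last segment. Member 74 (2404098 to 2416898) gave -0.03, -0.14 and -0.10 in NaCl, raffinose and urea with no call, at a control mean of 97.0 ± 13 CPM; with passage as a replicate block raffinose was called (-0.15, adjusted p = 0.00689). Member 75 (2424465 to 2432068) rose in urea by 0.51 ± 0.12. In NaCl it gave 0.22 (adjusted p = 0.102), called with the replicate block (0.21, adjusted p = 0.0027). Member 76 (2432579 to 2441456), the next along the chromosome, fell in NaCl (-1.04 ± 0.22) and raffinose (-1.29 ± 0.23) and gave -0.19 in urea (adjusted p = 0.467); its difference between NaCl and urea was -0.85 ± 0.22 (adjusted p = 0.000705).

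Member 77 (ENSCAFG00000032102, 2498738 to 2508275, minus strand, 6 exon blocks) had the lowest level per length of the 87, 0.215 RPKM over all libraries. It had 0.786, 2.92 and 3.96 CPM in control, 0.233, 0.487 and 1.24 in NaCl, 0.234, 1.07 and 1.58 in raffinose and 0.276, 0.384 and 1.20 in urea. The control library of passage 10 lay within the range of each solute group, and the next lowest control, passage 4 at 1.53 CPM, lay below the highest raffinose libraries. It fell by 2.17 (SE 0.25, adjusted p = 4.28e-11), 1.47 (SE 0.24, 2.24e-07) and 2.42 (SE 0.26, 2.02e-11), and the level in raffinose was higher than in urea (0.94 ± 0.29, adjusted p = 0.00309). Member 78 (2516976 to 2520999) fell most in urea, by 1.47 (SE 0.19), and was higher in NaCl than in urea by 0.92 ± 0.20. Its smaller fall in raffinose, 0.43, did not pass without any of passages 1, 5, 7, 11, 16 and 17 (adjusted p 0.0502 to 0.0763).

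The last segment also held a member that rose with each solute. Member 82 (ENSCAFG00000000903, 2626822 to 2655698, minus strand) has 65 exon blocks, and it had 0.459, 1.19 and 3.22 CPM in control, 10.5, 13.3 and 21.1 in NaCl, 17.3, 25.4 and 43.8 in raffinose and 3.35, 6.13 and 14.6 in urea. All libraries of each solute lay above all controls. The log2 fold changes were 3.24 ± 0.22 (adjusted p = 6.30e-19), 4.18 ± 0.22 (1.54e-23) and 2.27 ± 0.22 (2.53e-12). It differed between every pair of solutes: NaCl against raffinose by -0.93 ± 0.17 (adjusted p = 0.000121), NaCl against urea by 0.98 ± 0.18 (5.18e-06) and raffinose against urea by 1.91 ± 0.18 (1.49e-13).

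A few members marked a single solute or set urea against the others. Member 22 (ENSCAFG00000000475, 838393 to 839623, minus strand, 2 exon blocks) had 0.306, 1.22 and 2.42 CPM in control, 0.657, 1.18 and 1.71 in NaCl, 0.758, 1.53 and 2.36 in raffinose and 4.11, 6.25 and 10.1 in urea. All urea libraries lay above all others. It rose by 2.47 ± 0.20 in urea (adjusted p = 2.82e-15), while NaCl gave -0.05 (adjusted p = 0.847) and raffinose 0.31 (adjusted p = 0.197). The difference of NaCl from urea, -2.52 ± 0.20, was the lowest of any member in that comparison.

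Member 24 (ENSCAFG00000000483, 855836 to 858582, plus strand, 3 exon blocks) had 15.3, 21.5 and 30.1 CPM in control, 5.72, 7.48 and 13.5 in NaCl, 3.98, 5.38 and 9.40 in raffinose and 19.6, 26.7 and 32.8 in urea. The NaCl and raffinose libraries lay below all controls, with passage 19 the highest of each. It fell by 1.51 (SE 0.12, adjusted p = 1.26e-15) and 1.94 (SE 0.13, adjusted p = 3.55e-19). Urea gave 0.25 ± 0.12 (adjusted p = 0.0628), and with passage as a replicate block this was called (0.26, adjusted p = 0.0081). Member 23, between members 22 and 24, fell by 0.64 and 0.65 in NaCl and raffinose and rose by 0.29 in urea.

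Member 57 (1408626 to 1410535) fell most in urea. It had 32.7, 37.0 and 41.8 CPM in control and 15.1, 18.5 and 22.9 in urea, with no overlap, and fell by 0.99 (SE 0.07, adjusted p = 2.72e-17). NaCl and raffinose gave -0.18 and -0.30, and the difference of NaCl from urea was 0.81 ± 0.07.

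**Figure D5:**
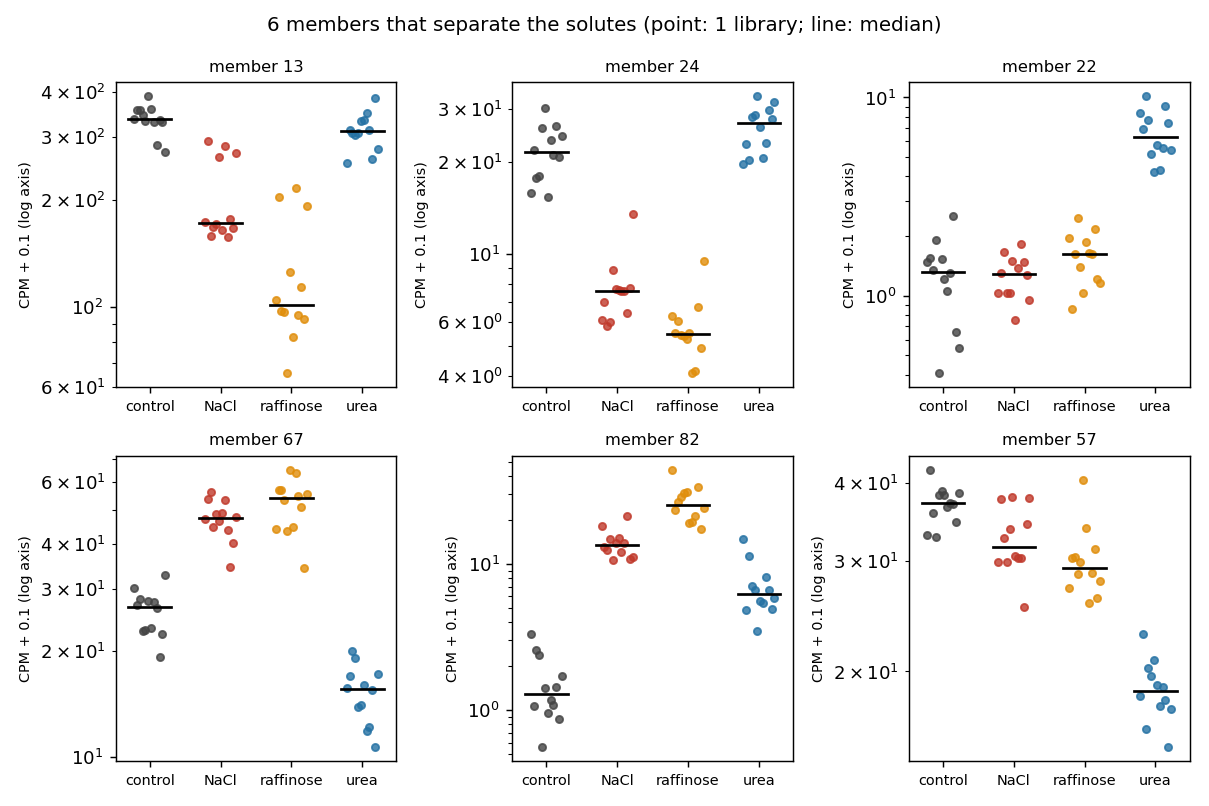
Level of 6 members that differ between solutes, in CPM + 0.1 on a log axis; each point is 1 library, ordered by passage within its group, and lines are medians. Member 22 is high in urea alone, member 57 is lowest in urea, member 67 is raised by NaCl and raffinose and lowered by urea, and member 13 has 4 high NaCl libraries apart from the other 8.

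Set directly against each other, NaCl and raffinose differed in 14 of the 87 members, 8 higher and 6 lower in NaCl, where 7.42% of all tested genes were higher and 7.97% lower, 15.4% in all. No member differed by 2-fold (0.514% of all tested genes did), and for no member were the groups of 12 apart (0.292%). The count was 14 with DESeq2 as well, and 23 members had an unadjusted p under 0.05 with either tool. The differences ran from -0.93 for member 82 to 0.71 for member 13. With library totals only, 9 were higher and 3 lower. The replicate block for passage raised the count to 21, and leaving out passage 8, 13 or 17 in turn lowered it to 9. Counts under these other settings stand without the share of all tested genes and are not read as a result about the members. At a minimum fold of 1.5, glmTreat called 0 members (0.111% of all tested genes), with 2 at an unadjusted p under 0.05.

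NaCl and urea differed in 58 members, 33 higher and 25 lower in NaCl, beside 35.7% and 36.9% of all tested genes, 72.6% in all. Raffinose and urea differed in 60, 35 higher and 25 lower in raffinose, beside 37.6% and 38.4%, 76% in all. At a minimum fold of 1.5 these were 19 (27.6% of all tested genes) and 27 (32.8%). With library totals the splits were 31 and 30, and 31 and 34, with no split of all tested genes taken beside them. These comparisons share their raffinose, NaCl and urea libraries with those above.

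Of features of the annotation, strand gave an uneven split in NaCl and raffinose. Among the 43 members on the plus strand 20 rose and 12 fell in NaCl, and among the 44 on the minus strand 12 rose and 20 fell. Over all tested genes the counts were 2220 and 2265 on plus and 2155 and 2309 on minus. In raffinose the member counts were 21 and 11 on plus and 11 and 18 on minus, beside 2356 and 2383, and 2292 and 2451, over all tested genes. In urea they were 7 and 10, and 13 and 14, beside 1748 and 1586, and 1714 and 1571. Neighbouring members share strand and direction in stretches such as members 47 to 49 and 16 to 20, so the counts are not of separate events, and no test was made.

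The 6 members with a single exon block were all called in NaCl and in raffinose, 3 higher and 3 lower each time, where 62.3% and 65.8% of the 872 tested genes with 1 exon block were called. Members 15, 46 and 49 were the 3 that rose. Another annotated gene overlaps 38 of the members. For 20 of them such a gene lies on the opposite strand, and 17 members share exon bases with another gene. Reads on exon bases shared across strands cannot be told apart, since strand was ignored.

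Reads on the members made up 0.749 ± 0.025% of all counts in control (SD, n = 12), 0.691 ± 0.035% in NaCl, 0.658 ± 0.037% in raffinose and 0.766 ± 0.026% in urea. On TMM-scaled totals the means were 0.690%, 0.716%, 0.712% and 0.742%, so control stood above NaCl and raffinose on 1 scale and below them on the other. Member 32 (1112614 to 1126345) supplied 11.1% of the CPM of all members, with 628, 755 and 865 CPM in control; it did not pass in NaCl (0.03) or raffinose (0.06) and rose in urea by 0.19 ± 0.07.

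Of the 87 members, 10 were below 1 CPM in at least 1 group: members 16, 17, 21, 34, 50, 70, 71, 73, 76 and 77. Each owed its place to the groups in which it was high, so its calls are not support for a change of the region. The other 54 genes of the interval stayed under 1 CPM in every group, and 9 of these had no read. A count of 0 allows up to 3 reads per library, and a lack of reads there does not show a lack of expression.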

How the data were processed

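The authors deposited raw counts of reads per gene in 1 table that covers the 48 libraries, made per the submitters' processing notes with CASAVA, HISAT2 2.0.5 and featureCounts 1.5.1. Exons were counted and summed within genes, ignoring strand, against CanFam3.1 with Ensembl 87 genes, per the file headers; multi-mapping and multi-gene reads have no setting in the recorded command, so near-identical and overlapping genes are measured with less certainty. Each passage 10 column has an extra number in its name, unexplained in the sources used here, and was matched to passage 10. No column of values was left unused (0 columns).

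Counts were fitted on the whole table with edgeR 4.0.16 in R 4.3.3 over all 48 libraries: filterByExpr (12654 genes, all 87 members among them), TMM factors, glmQLFit with a term for the group, glmQLFTest for 6 comparisons, Benjamini-Hochberg adjustment over all tested genes and a threshold of 0.05. The common biological coefficient of variation was 17%. CPM used TMM-scaled totals, the SE was the size of the log2 fold change over the square root of F, and exon blocks are merged exons. The fit was tested on simulated data drawn without a passage effect, so that test does not cover the correlation of same-passage libraries. The lowest chi-square per gene between libraries of a group was 4.99, and each library was counted as 1 replicate. That value does not show that the libraries are independent, since all are passages of 1 line.

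Passage numbers pair the libraries, since the labels give each to 1 library of every group. With group means removed, the 72 same-passage pairs correlated at 0.328 on average (-0.117 to 0.729), the 792 others at -0.0295.

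Members and lists were chosen with earlier results of these data known. Identifiers named are, among members with a mean of at least 1 CPM over all libraries, the 2 highest and 2 lowest called log2 fold changes per comparison, the 2 highest levels per length and the 2 members with most variance between passages. The lists of genes and cell markers by symbol could not be applied, and segments, strand, exon number and overlap took their place. Alternatives were RLE factors, library totals, no filter, a minimum mean of 5 CPM, DESeq2 1.42.0, passage as a block or linear term, the 2 groups alone, glmTreat, 2 other membership rules, no shallowest library, and each passage left out.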

Additional observations from a re-analysis of the deposited data

How the results depend on the processing

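The number of members called kept within 1.5 times its value for RLE factors, library totals, a mean of at least 5 CPM, DESeq2, passage as a linear term, the 2 groups alone, a mean of at least 1 CPM over all libraries, and without the shallowest library (urea, passage 8). With passage as a replicate block the counts were 68 for NaCl against control, 68 for raffinose, 49 for urea, 21 for NaCl against raffinose, and 64 and 62 for these solutes against urea. Against a minimum fold of 1.5 they fell to 24, 29, 11, 0, 19 and 27. Among the 49 members that overlap no other gene, a smaller set by construction, they were 37, 34, 24, 10, 35 and 36. With no filter on low counts, NaCl against raffinose gave 9 calls; the cause was not tested. Leaving out each passage gave 62 to 65, 59 to 62, 42 to 45, 9 to 17, 55 to 60 and 60 to 61. No call turned to the opposite direction under any of these settings. Their counts are given here without the share of all tested genes called, so they describe the settings and not a trait of the members. Of the named members, the differences of NaCl from raffinose in members 13, 21, 24, 45 and 82 were lost at a minimum fold of 1.5, and that of member 45 also with no filter (adjusted p = 0.0501). That of member 24 was lost without passage 8, 13, 14 or 17 (adjusted p 0.0518 to 0.0601). The share of counts on TMM-scaled totals was 0.690% in control and 0.712% in raffinose. In each library it is by definition the share of counts divided by the TMM factor. That factor was at least 1.055 in every control and at most 0.983 in every raffinose library. Depth limits the low members most: at 1 CPM the shallowest library holds 3.915 reads, and a count of 0 allows up to 3 reads.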

Other observations

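A pair of members had the largest share of their variance between passages. Member 7 (ENSCAFG00000000411, 435194 to 441126, plus strand, 7 exon blocks) had 66.9% of its variance between passages and 12.9% between groups. Its mean over the 4 libraries of a passage ran from 35.4 CPM at passage 8 to 48.3 CPM at passage 19, and at passage 10, with a mean of 47.7 CPM, the 4 libraries had between 45.6 and 53.2 CPM. It was lower than its same-passage control in 10 of 12 pairs with each solute. Against control it gave -0.15, -0.15 and -0.17 for NaCl, raffinose and urea (adjusted p 0.0705 to 0.0749), and with passage as a replicate block each was called (-0.16, -0.16 and -0.17, adjusted p 0.00252 to 0.00374).

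Member 56 (ENSCAFG00000000686, 1363672 to 1406213, plus strand, 38 exon blocks) had 65.6% of its variance between passages and 4.84% between groups, the lowest group share of the 87. Its urea change of -0.14 (adjusted p = 0.216) was called with the replicate block (-0.14, adjusted p = 0.0467). Its passage means ran from 30.1 CPM at passage 19 and 32.4 CPM at passage 10 to 48.6 CPM at passage 5. Passages 4, 10, 13 and 19 had the highest means of member 7, at 44.8, 47.7, 46.1 and 48.3 CPM. They had the lowest means of member 56, at 34.9, 32.4, 36.1 and 30.1 CPM. The same passages formed the higher NaCl set of member 13. That the set recurs was seen after the values were known and was not tested. Over the 87 members the median share of variance was 56.5% between groups and 18.8% between passages, beside 56.8% and 19.97% over all tested genes, and the group share was the larger in 65 members.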
